A study of Canis lupus familiaris with 12 samples.

Results

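BAFF and APRIL are paired ligands of the tumor necrosis factor (TNF) superfamily that keep B cells and plasma cells alive, and they act through 3 receptors. The 5 genes of this system are TNFSF13, which encodes APRIL, TNFSF13B, which encodes BAFF, and the receptors TNFRSF13B (TACI), TNFRSF13C (BAFF-R) and TNFRSF17 (BCMA). They were chosen by name, and all 5 were among the 780 endogenous genes of a canine immuno-oncology panel of 800 probes, the other 20 being housekeeping genes. Their expression was measured in lymph nodes of dogs with sinonasal cancer by NanoString nCounter, which counts color barcodes hybridised to each transcript without amplification. Tumors of all dogs were treated by stereotactic body radiation therapy (SBRT), with 3 fractions of 10 Gy. In one group, the irradiated nodes, the field also took in the submandibular and retropharyngeal nodes of both sides (elective nodal irradiation, ENI). In the other group, the non-irradiated nodes, no node was targeted.

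Each group held 6 samples from 3 dogs, with 2 samples from each dog, and the labels do not say how the samples of a dog differ. By the study's methods, mandibular nodes on the side of the tumor were removed 2 weeks after SBRT, so no node from before treatment entered the comparison. Age at diagnosis was 7 to 14 years in the irradiated group and 3 to 9 years in the other, and with 1 value per group, age and nodal irradiation cannot be told apart. Both groups held spayed female and neutered male dogs, and carcinoma and malignant tumor were recorded in both, while the sarcoma was in the irradiated group. The labels call each sample lymph node, although the extraction text speaks of tumor tissue. The lymphoid markers fixed for the check were present, with B cell genes from 77.8 to 4075 and T cell genes from 12.3 (ZAP70, an antigen receptor kinase) to 4393 normalized counts, and the epithelial genes lay between 8.43 (MUC1) and 285 (CDH1).

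BAFF, made by myeloid and stromal cells, binds all 3 receptors, BCMA only weakly, and APRIL, made mainly by myeloid cells, binds TACI and BCMA. In mouse and human, BAFF-R carries the survival signal of naive B cells, TACI takes part in antibody class switching and restrains B cell numbers, and BCMA supports plasma cells. In a lymph node the receptors therefore mark B lineage cells at different stages, whereas the ligands come largely from other cells. A node is a mixture, so fewer cells of a type and less RNA per cell cannot be told apart in these values.

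For each gene the files give 1 value per group, in normalized counts, and 1 standard deviation (SD) over the samples of the group. The value is printed here as the authors' mean. It behaved as a geometric mean, since the SD of 4 genes was larger than 6 values with that arithmetic mean allow. Single-sample values were not used here. The log2 ratio, irradiated over non-irradiated, was taken from the group values, and its standard error (SE) from both SDs, which were carried to the log2 scale on the assumption of lognormal values. The limma test was run over all 780 genes with Benjamini-Hochberg adjustment, and 28 genes passed an adjusted p of 0.05 (3.59% of the genes tested), 13 higher (1.67%) and 15 lower (1.92%). This test takes the 6 samples of a group as independent, and it calls too many genes if the samples of a dog are alike. Where both samples of a dog were instead assumed identical, so that 3 dogs faced 3 dogs, 0 genes passed, and 35 genes (4.49%) had an unadjusted p under 0.05, 1.54% of the panel higher and 2.95% lower.

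The receptors were measured at higher levels in irradiated nodes and the ligands at nearly equal levels, but none of the 5 genes passed the test. The log2 ratio was 1.46 ± 0.64 SE for TNFRSF17, 0.57 ± 0.18 SE for TNFRSF13B and 0.54 ± 0.26 SE for TNFRSF13C, against 0.10 ± 0.22 SE for TNFSF13B and -0.02 ± 0.16 SE for TNFSF13. By limma with Benjamini-Hochberg adjustment, 0 of 5 passed, beside 3.59% of all genes, and TNFRSF13B and TNFRSF17 had an unadjusted p under 0.05, as had 21.9% of all genes (8.46% higher, 13.5% lower). With both samples of a dog assumed identical, 0 of 5 had an unadjusted p under 0.05. The median log2 ratio of the 5 genes was 0.54, while that of all 780 genes was -0.05. The values of the receptors and of the ligands come from the same samples, and their joint spread is not in the files, so the difference between receptors and ligands was not tested. The transcript records named for the receptor probes were not found in the RefSeq dog annotation used here, while those of the ligand probes were. What this means for the receptor counts was not tested.

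**Figure D1:**
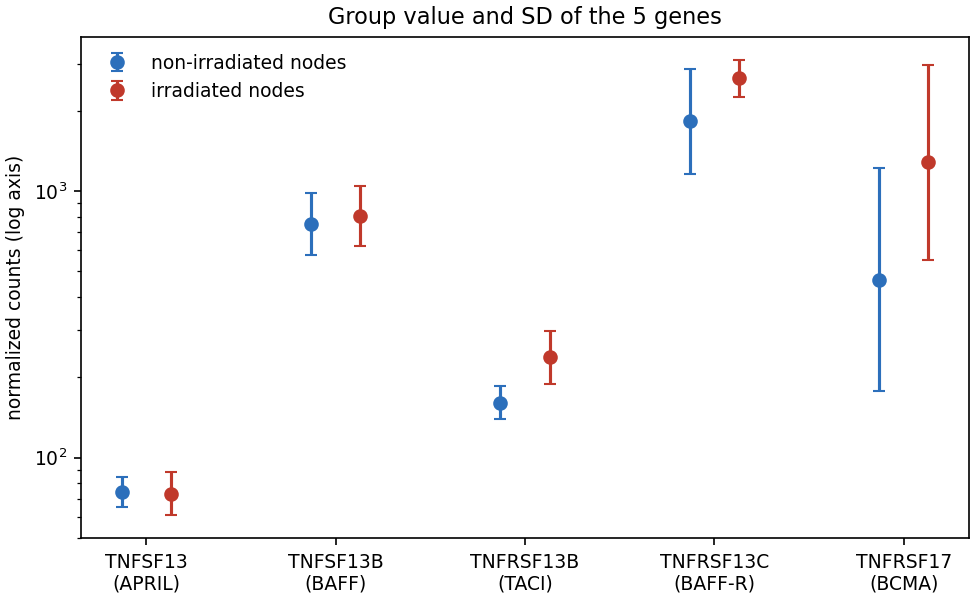
Group value of each of the 5 genes in non-irradiated (blue) and irradiated (red) nodes, in normalized counts on a log axis, with bars of 1 SD on the log2 scale (6 samples of 3 dogs per group). The bars of TNFSF13 and TNFSF13B cover nearly the same range in both groups, those of TNFRSF13B do not overlap on this scale, and those of TNFRSF17 are the longest.

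APRIL and BAFF were compared first because they are the supply side of the system. The authors' mean of TNFSF13 was 73.3 normalized counts (SD 14.2) in irradiated nodes and 74.4 (SD 9.59) in non-irradiated nodes. The range of 1 SD around the mean, 59.1 to 87.5, enclosed that of the non-irradiated nodes, 64.8 to 84.0. The 95% interval of the log2 ratio ran from -0.36 to 0.32, which is a ratio of 0.777 to 1.25 (adjusted p = 0.963). With both samples of a dog assumed identical the interval widened to a ratio of 0.585 to 1.66. The sign of this log2 ratio was not stable, since it was above 0 when all ratios were centred on the housekeeping median (0.0074) or on the endogenous median (0.025).

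The authors' mean of TNFSF13B was 806 normalized counts (SD 221) with nodal irradiation and 751 (SD 213) without. The log2 ratio of 0.10 had a 95% interval from -0.36 to 0.57, a ratio between 0.777 and 1.48 (adjusted p = 0.848). The ranges of 1 SD, 586 to 1027 and 538 to 964, overlapped over most of their length. A BAFF transcript level in irradiated nodes more than 1.48-fold that of non-irradiated nodes therefore lay outside the interval over samples, and one of more than 1.88-fold outside the interval with the samples of a dog assumed identical. Of the 780 genes, 261 had a larger log2 ratio than TNFSF13B and 364 a larger one than TNFSF13, which places both ligands in the middle of the panel.

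TNFSF12, which encodes the ligand TWEAK, lies directly before TNFSF13 in the order of protein-coding genes of the RefSeq dog annotation, and in human a read-through of both genes is known. Its authors' mean was 127 (SD 25.6) with nodal irradiation and 184 normalized counts (SD 30.2) without. The log2 ratio was -0.53 ± 0.17 SE (adjusted p = 0.0825), beside -0.02 for TNFSF13. The TNFSF13 probe targets position 863 of its transcript record. The difference between these neighbors was not tested.

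TACI had the smallest adjusted p of the 5 genes. The authors' mean of TNFRSF13B was 238 normalized counts (SD 56.9) in irradiated and 161 (SD 23.6) in non-irradiated nodes, a 1.48-fold difference. The range of 1 SD around the mean was 181 to 295 in irradiated and 137 to 184 in non-irradiated nodes, so these ranges met only at their edges. The log2 ratio of 0.57 had a 95% interval from 0.19 to 0.94 over samples and an adjusted p of 0.0793, which ranged from 0.068 to 0.999 over the alternatives. With both samples of a dog assumed identical the interval ran from -0.20 to 1.33 and took in 0. By log2 ratio TNFRSF13B stood at rank 56 and by p-value at rank 60 of 780 genes.

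For BAFF-R both the level and the spread are given, and its level did not pass the test. The authors' mean of TNFRSF13C was 2644 (SD 435) in the irradiated group and 1823 normalized counts (SD 959.6) in the other. The range of 1 SD was 2208 to 3079 in irradiated nodes and 864 to 2783 in non-irradiated nodes, so that the narrow upper range lay largely inside the wide one. The 1.45-fold difference had a 95% interval of 0.98 to 2.14 (adjusted p = 0.245, 0.177 to 1 over the alternatives). The SD was 16.5% of the authors' mean in irradiated nodes and 52.6% in non-irradiated nodes. On the log2 scale this is 0.23 against 0.65, and for 94 of the 780 genes the SD in irradiated nodes was smaller by more. Over the panel the SD was smaller in irradiated nodes for 510 genes (65.4%), with medians of 22.9% and 32.2%. The difference in spread was not tested.

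BCMA had the largest log2 ratio of the 5 genes and one of the largest spreads of the panel. The authors' mean of TNFRSF17 was 1279.6 normalized counts (SD 1841) with nodal irradiation and 464 (SD 908) without, a 2.76-fold difference. In both groups the SD exceeded the mean, at 144% and 196% of it. Only HSD11B1, SPP1 and CXCL14 had a larger log2 ratio. For its SD relative to the mean, TNFRSF17 ranked 1 of 780 genes in non-irradiated and 9 in irradiated nodes, and IL13RA2, a decoy receptor for interleukin 13, was the only other gene among the 10 with the largest relative SD in both groups. The genes other than TNFRSF17 were picked out after their values were seen.

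The mean and SD together set limits on the single samples. Taking 6 values per group, the highest and the lowest TNFRSF17 sample differed at least 5.79-fold in non-irradiated nodes and at least 4.36-fold in irradiated nodes. For the median gene of the panel the same limits were 1.64 and 1.44. The lowest irradiated sample was at most 1001 normalized counts, and the highest non-irradiated sample was at least 1657, so the groups overlapped in TNFRSF17. If the SDs were instead over 3 values per group, the limits would be 7.69 and 5.36, and the groups would overlap as well (at least 1572 against at most 731). For the other 4 genes the limit lay between 1.24 and 2.09, the largest being that of TNFRSF13C in non-irradiated nodes.

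With this spread the ratio of TNFRSF17 was poorly determined. The 95% interval of its log2 ratio ran from 0.09 to 2.84 over samples, or 1.06 to 7.17-fold, with an adjusted p of 0.202 (0.185 to 1 over the alternatives). In this fit limma draws the spread of each gene toward that of the panel, which made the SE of TNFRSF17 smaller than its own spread gave. From its own spread alone the SE was 0.75 and the interval -0.21 to 3.14, which takes in 0 (adjusted p = 0.299). With both samples of a dog assumed identical as well, the SE was 1.19 and the interval -1.84 to 4.76. An SD from few values of a skewed gene is more often too small than too large, so these intervals may still be too narrow for TNFRSF17.

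**Figure D2:**
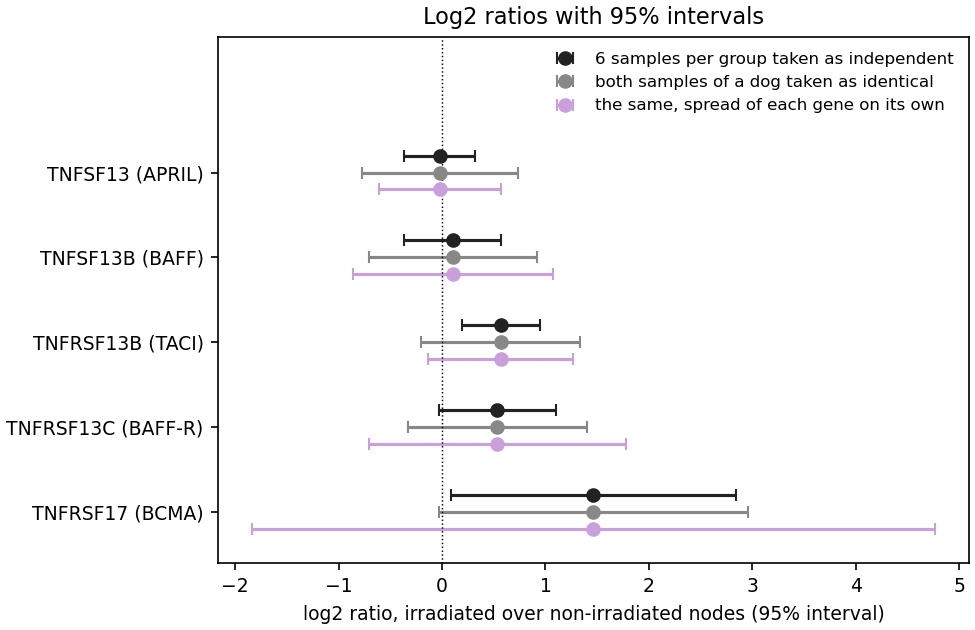
Log2 ratio (irradiated over non-irradiated) for the 5 genes, with 95% intervals over 6 samples per group taken as independent (black), with both samples of a dog taken as identical (gray), and the latter with the spread of each gene on its own (purple). In the black intervals TNFRSF13B and TNFRSF17 lie above 0, while every gray and purple interval takes in 0.

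The receptors sit on B lineage cells, so their values were set beside lists of B cell and plasma cell genes that do not hold them. Of 14 B cell identity genes 13 had a log2 ratio above 0, against 45.1% of the panel, with a median of 0.28, and 0 passed the test in either direction. Summed over this list, the group values were 17693 and 14730 normalized counts, with and without nodal irradiation. CD79A, a signaling chain of the B cell antigen receptor, had the lowest log2 ratio (-0.13 ± 0.26 SE, adjusted p = 0.833). IGHM, the heavy chain gene of IgM, was in neither list and was lower in irradiated nodes. It had 13779 (SD 2355) against 28054 (SD 18379) normalized counts, a log2 ratio of -1.03 ± 0.30 SE (adjusted p = 0.0622). MS4A1, which encodes CD20, was measured at 2122 (SD 455.5) and 1443 (SD 703) normalized counts, a log2 ratio of 0.56 ± 0.26 SE. The ratios of TNFRSF13B and TNFRSF13C lay close to that of MS4A1, and that of TNFRSF17 lay above those of all genes of the list. The share of the receptor ratios that goes with the level of B cell genes was not tested.

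The spread of TNFRSF13C also resembled that of B cell genes. In 13 of the 14 the SD was a smaller percentage of the mean in irradiated nodes, with medians of 19.7% and 49.7%, and the exception was the kinase gene BLK. This was not particular to B cell genes. It also held for all 7 measured genes of the list of TRAF adaptors and noncanonical NF-kappaB genes described below. The same was seen in all 5 endothelial genes, 5 of 12 T cell genes and 65.4% of the panel. TNFRSF13B did not have this pattern, as its SD was 23.9% of the mean in irradiated and 14.7% in non-irradiated nodes. Neither did TNFSF13, at 19.3% and 12.9%, while TNFSF13B was at 27.4% and 28.4%.

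**Figure D3:**
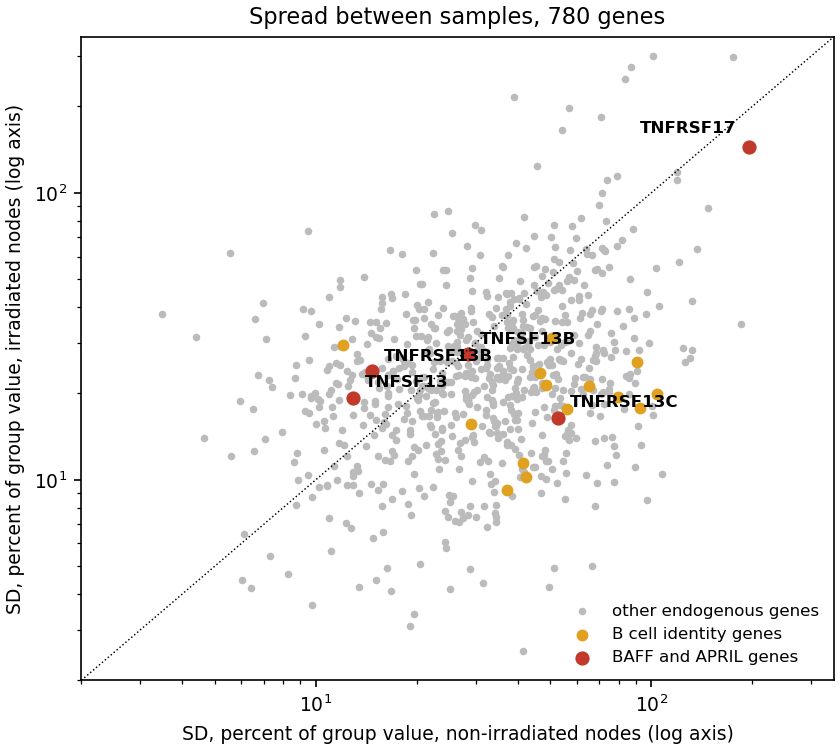
SD as a percentage of the group value in non-irradiated (horizontal) and irradiated (vertical) nodes for 780 genes, both on log axes, with the line of equal spread. TNFRSF17 lies farthest right at 196%, and TNFRSF13C, at 52.6% and 16.5%, lies among the B cell identity genes below the line.

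Genes of plasma cells and class switching gave mixed values. Of the 6 measured 4 were higher and 2 lower in irradiated nodes (median 0.43), and 0 passed. PRDM1, the factor that drives plasma cell differentiation, had the highest log2 ratio at 0.80 ± 0.30 SE (63.3 against 36.3 normalized counts, adjusted p = 0.131). IRF4, which acts with it, was at 0.48 ± 0.32 SE. CD27, a TNF receptor of memory B cells and T cells, was the lowest at -0.58 ± 0.28 SE (adjusted p = 0.241). The SD of IRF4 was 74.8% of the mean in non-irradiated nodes, the highest of this list there, beside 196% for TNFRSF17. XBP1, SDC1, MZB1 and JCHAIN were not analysed here, so the plasma cell program was covered by few genes. IGHM, which was not in this list, was lower in irradiated nodes, as given above.

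Downstream, BAFF-R signals through TRAF3 and TRAF2, whose release from the kinase NIK lets NIK activate the IKK subunit CHUK. NFKB2 is then processed, and the product enters the nucleus with RELB. The list used here joins this noncanonical NF-kappaB route with 2 further adaptors, TRAF1 and TRAF6, which are not part of the route as described. Of its 7 measured genes 5 were higher and 2 lower (median 0.12), and 0 passed. TRAF1, at 0.12 ± 0.15 SE, and TRAF6, at 0.14 ± 0.22 SE, are among the 5. TRAF3 had 1126 (SD 219) against 971 (SD 386) normalized counts, a log2 ratio of 0.21 ± 0.23 SE, and TRAF2 one of 0.05 ± 0.17 SE. CHUK was the highest at 0.33 ± 0.15 SE (adjusted p = 0.206) and RELB the lowest at -0.34 ± 0.26 SE (adjusted p = 0.481). NFKB2 was at -0.06 ± 0.25 SE, with 1318 and 1378 normalized counts. The NIK gene MAP3K14 was not analysed here.

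TACI and BCMA also use the canonical route. The list used for it also holds the inhibitor genes NFKBIA and TNFAIP3 and the IKK-related kinase gene IKBKE, which is not a core member of the route. Of the 9 measured genes in this list 6 were lower and 3 higher in irradiated nodes (median -0.32), beside 428 of 780 lower in the panel, and 0 passed. NFKB1 had the lowest log2 ratio (-0.50 ± 0.23 SE, adjusted p = 0.22), and RELA, its usual partner, had 645 (SD 114) against 886 (SD 57.4) normalized counts (-0.46 ± 0.15 SE, adjusted p = 0.0825). The highest of the list was IKBKE at 0.18 ± 0.17 SE. Among 4 measured genes of the BCL2 family, which includes targets of this survival signal, 3 were higher and 1 lower and 0 passed. BCL2, the survival factor, was at -0.50 ± 0.33 SE and its opponent BAX at 0.45 ± 0.32 SE (adjusted p = 0.426 and 0.449).

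**Figure D4:**
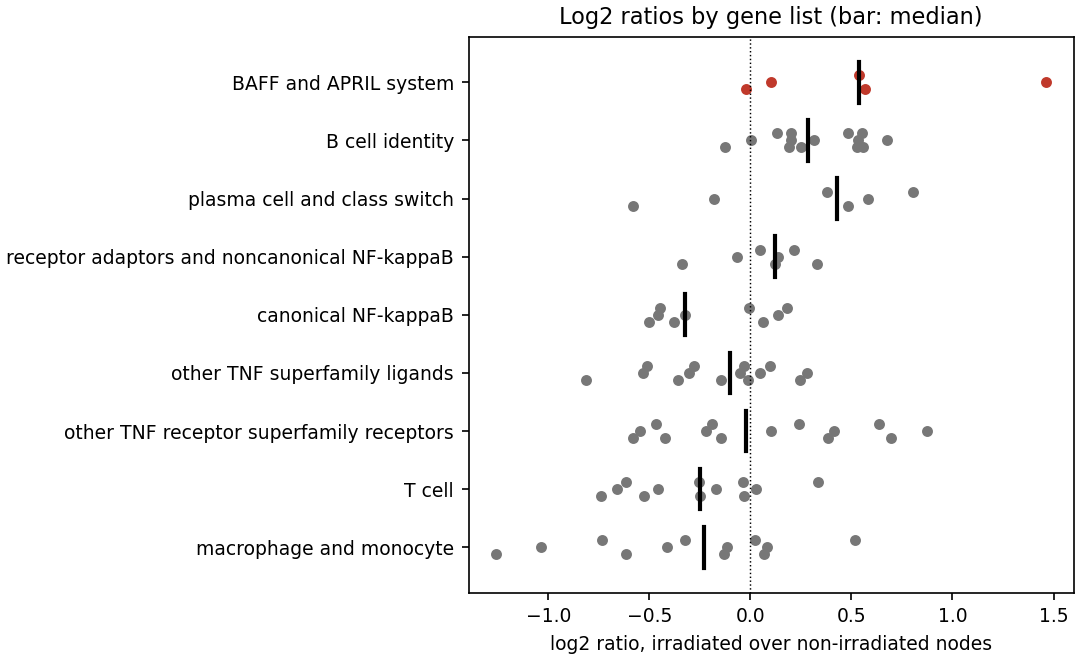
Log2 ratios (irradiated over non-irradiated) for the 5 genes (red) and for the genes of 8 other lists (gray), with the median of each list as a black bar. TNFRSF17 at 1.46 lies to the right of every gene shown, and the medians run from -0.32 for canonical NF-kappaB genes to 0.54 for the BAFF and APRIL genes.

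Relatives of the system in the TNF superfamily were spread around 0. Of the 14 other ligands 4 were higher and 10 lower (median -0.10), and of the 14 other receptors 7 were higher and 7 lower (median -0.02), with 0 past the test in either list. Among ligands, CD70 had the highest log2 ratio (0.28 ± 0.20 SE) and TNFSF11, which encodes RANKL, the lowest (-0.81 ± 0.22 SE, adjusted p = 0.0518). CD40, the receptor through which T cells help B cells, had 1185 (SD 131) against 762 (SD 344) normalized counts, a log2 ratio of 0.64 ± 0.23 SE (adjusted p = 0.127), and its ligand CD40LG one of -0.05 ± 0.16 SE. CD40 thus had a higher ratio with a narrower SD in irradiated nodes, as TNFRSF13C did, and a ligand near 0. TNFRSF12A, the receptor of TWEAK, was the highest of the other receptors at 0.88 ± 0.28 SE (adjusted p = 0.0825). The lowest was CD27, named above, at -0.58 ± 0.28 SE (adjusted p = 0.241).

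The candidate sources of the ligands were looked at through their own markers. Of 12 macrophage and monocyte genes 8 were lower and 4 higher in irradiated nodes (median -0.23), and 0 passed. SIGLEC1, a sinus macrophage lectin, was the lowest at -1.26 ± 0.34 SE (adjusted p = 0.0518) and FCGR1A, an antibody receptor, the highest at 0.52 ± 0.41 SE. Summed over this list, the group values were 6712 normalized counts with nodal irradiation and 9518 without. Of 6 neutrophil genes 5 were higher and 1 lower (median 0.21), and 0 passed. The lower one, the elastase gene ELANE, had the log2 ratio farthest from 0 (-0.86 ± 0.40 SE, adjusted p = 0.22) and was the only one of the list with an unadjusted p under 0.05, while the highest was S100A12 at 0.31 ± 0.67 SE. Of 6 dendritic cell genes 5 were lower and 1 higher (median -0.16), from CD1C at -0.43 ± 0.20 SE to CCL17 at 0.04 ± 0.55 SE, and 0 passed. In the neutrophil list the calgranulin genes S100A8, S100A9 and S100A12 had SDs of 249% to 299.7% of the mean in irradiated nodes. Interferon induces BAFF in myeloid cells, and of 10 interferon-stimulated genes 6 were higher and 4 lower (median 0.12), from ISG15 at 0.96 ± 0.29 SE (adjusted p = 0.0759) to IFIT2 at -0.24 ± 0.19 SE, with 0 past the test.

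Of the stromal, endothelial and epithelial markers 5 genes passed the test. Among 10 stromal genes (median -0.10), CXCL12, PDGFRA and PDGFRB were lower in irradiated nodes, at log2 ratios of -1.34, -1.67 and -0.92 (adjusted p = 7.57e-05, 7.57e-05 and 0.012). The endothelial cadherin CDH5 was lower by 1.14 on the log2 scale (adjusted p = 0.00209), among 5 endothelial genes that were all lower. CXCL13, the chemokine of B cell follicles, was the highest of the stromal list at 0.85 ± 0.38 SE (adjusted p = 0.208), with 17547 (SD 6448) against 9724 (SD 8656) normalized counts. KRT18, an epithelial keratin, was higher in irradiated nodes by 1.09 on the log2 scale (adjusted p = 0.0215), and was 1 of 5 epithelial genes to pass. The cadherin CDH1 was at -0.48 ± 0.16 SE (adjusted p = 0.109). Of 12 T cell genes 10 were lower (median -0.25), the lowest being CD3E at -0.74 ± 0.30 SE and the highest TRAT1 at 0.33 ± 0.31 SE, and 0 passed. These calls were lost with both samples of a dog assumed identical, where the smallest adjusted p of the panel was 0.203. The part of these markers in the values of the 5 genes was not tested.

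Genes that resembled each member were sought by the distance over 3 values, the log2 ratio and the log2-scale SD in each group. With 2 groups this likeness says little, and it was taken over group values and not over samples. TNFRSF13C was nearest to LGALS3, a galectin (distance 0.059), and to MS4A1 (0.0797). TNFRSF13B was nearest to CDKN2B (0.115) and AIRE (0.147), TNFSF13 to IRAK2 (0.0286) and RORA (0.0556), and TNFSF13B to IL17A (0.0315) and NINJ2 (0.0394). TNFRSF17 had no close neighbor, as the chemokines CCL23 (0.77) and CCL20 (0.773) were the nearest. CCL23 had 474 (SD 524) against 244 (SD 181) normalized counts and a log2 ratio of 0.95 ± 0.48 SE (adjusted p = 0.253).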

How the data were processed

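RNA of 12 lymph node samples from 6 dogs was read by the authors on an nCounter FLEX with the canine IO 360 panel and analysed in nSolver, with its version and background setting not given in the sources used here. The deposited signal is 1 normalized count per probe and group with its SD over samples, per the file headers. The number of samples behind each value is not stated and was taken as 6. Over the 20 housekeeping genes the mean log2 ratio was -2.62e-05, as scaling of the deposited signal to them gives. A relative SD above 245%, the most that 6 values around an arithmetic mean allow, was found for 4 genes, and the values were read as geometric means. The deposited table also holds the authors' folds, limits and p-values, which were not used.

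The log2-scale variance was ln((1 + sqrt(1 + 4 r r))/2), with r the SD over the group value, converted to base 2. It was pooled over both groups, with 10 residual degrees of freedom, and moderated with eBayes in limma 3.58.1 (R 4.3.3), two-sided, with Benjamini-Hochberg adjustment over 780 endogenous genes. For dogs, both samples of a dog were assumed identical, with 4 degrees of freedom. On simulated data the test over samples came close to its nominal error rate where samples were independent, but called many unchanged genes where both samples of a dog were identical, and the recovered SDs tended to be too small. Depth per sample is unknown, all 5 genes were above 20 normalized counts, and 61 genes were below. Limits on single samples follow from the smallest range that an SD allows. The text names the 5 genes, of each list the genes that passed and those of highest and lowest log2 ratio, textbook partners, and 2 nearest genes per member. HSD11B1, SPP1, CXCL14, IL13RA2, BLK, RELA, IGHM, S100A8 and S100A9 were named after their values were seen. Members and lists were chosen with earlier results of these data known. RefSeq gene order (UU_Cfam_GSD_1.0) was used with Python 3.11.15, pandas 2.3.3, scipy 1.17.1 and matplotlib 3.10.9. Single values of some list genes are not reported here, and no sequences were printed.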

Additional observations from a re-analysis of the deposited data

How the results depend on the processing

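Under all alternatives run, 0 of the 5 BAFF and APRIL genes passed the threshold, and 4 of them kept the sign of their log2 ratio. The exception was TNFSF13, at -0.02, which became 0.0074 with ratios centred on the housekeeping median and 0.025 on the endogenous median. Against 28 genes of the panel past the threshold, Benjamini-Yekutieli adjustment, which is stricter by construction, gave 7, and the first-order conversion of the SD, which gives larger SDs to genes of wide spread, gave 16, all among the 28. Both samples of a dog assumed identical gave 0, as its errors are larger by construction, and so did the same with the ordinary pooled variance (0), which was added after seeing the data, as was a robust prior variance. The other alternatives gave 25 to 38, but not always the same genes. Unequal variances gave 29 genes, of which 17 were among the 28. The ordinary pooled variance over samples gave 35, of which 20 were among the 28. With group values read as arithmetic means the log2 ratio of TNFRSF17 was 1.79 and that of TNFRSF13C 0.69.

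Leaving out each replicate and another pseudocount were not run, as they need values of single samples. No paired analysis was possible because the columns carry no replicate and no dog is in both groups. Depth per sample is unknown, and the SE of TNFRSF17 ran from 0.64 to 1.27 over the alternatives.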
